A study of Mus musculus with 24 samples.

Results

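Multipotent progenitors of the MPP2 gate were compared with haematopoietic stem cells (HSC) sorted from the same kind of mouse, in which the histone H2A deubiquitinase gene Mysm1 had been deleted. The comparison used every library titled MPP2 or HSC with Mysm1 knockout (KO): 3 MPP2 libraries against 3 HSC libraries, 6 of the 24 in the series. Their replicate labels are 1, 2_3 and 4 in both cell types, and values are given in that order throughout. KO mice were Mysm1 fl/fl CreERT2 animals given 8 intraperitoneal injections of tamoxifen over 16 days at 0.15 mg/g, which removes exon 3 of Mysm1. The control genotype, referred to as Het, was Mysm1 +/fl CreERT2 with the same tamoxifen course, so that both genotypes carried the Cre and received the drug. Corn-oil-treated Mysm1 fl mice formed a further control group that entered the fit and none of the comparisons. All mice were C57BL/6, 8 to 12 weeks old, with males and females pooled. All cells were lineage-negative, Kit+, Sca1+, CD150+ and Flt3-. The HSC gate was CD34- CD48-, the MPP1 gate CD34+ CD48- and the MPP2 gate CD34+ CD48+. Cells of several mice were pooled in each library, so a p-value measures the spread between pooled libraries. The promoter that drives the Cre and the share of cells with the deletion in each library are not given in the sources used here.

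HSC are the rare bone marrow cells that can rebuild all blood lineages, and most of them rest outside the cell cycle. MPP2 are downstream progenitors that divide more often, have little long-term repopulating capacity and lean towards the megakaryocyte and erythroid lineages, and MPP1 stand between them and HSC. MYSM1 removes ubiquitin from histone H2A and takes part in gene activation in blood stem and progenitor cells, and its loss in mice is known to raise p53 activity and to impair stem cell function.

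Levels are CPM, the counts of a gene per 1000000 counts of the library after TMM scaling of library sizes. A log2 change is MPP2 minus HSC within KO unless another contrast is named, with its approximate standard error (SE) after ±, and p-values come from edgeR's quasi-likelihood test with Benjamini-Hochberg adjustment over the 21456 genes that were tested, the threshold being 0.05. Total counts per library ran from 23877910 to 53196624 in these 6 libraries, and from 18823971 to 53196624 in the series. Between 15740 genes, in HSC library 1, and 21150 genes, in MPP2 library 2_3, had at least 1 count. HSC library 4 stood apart in Prg2, a granule protein gene of eosinophils, at 66.5 CPM against 0 and 3.16 CPM in the other HSC libraries. Library 1 was the highest HSC library in cell cycle genes and HSC library 2_3 the highest in markers of mature B cells, T cells and macrophages. Mysm1 itself was at 96.3, 115 and 121 CPM in HSC and 88.1, 92.6 and 102 CPM in MPP2 (log2 change -0.23 ± 0.14, edgeR adjusted p = 0.437). Those counts span the whole gene and exon 3 is a small part of it, so they do not check the deletion.

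In KO, 1296 of 21456 genes (6.04% called) differed between MPP2 and HSC. Of these, 728 were higher in MPP2 (3.39%) and 568 lower (2.65%), with a median size of 0.93 (log2) among the genes called. The median log2 change of all genes tested was -0.17, and it was 0.03 over the 11216 genes with a mean of at least 5 CPM. Groups of 3 and 3 libraries did not overlap in 22.9% of all genes, called or not. The calls described here included falls among stem cell, receptor, adhesion, interferon response and antigen presentation genes, and rises among cell cycle, histone, biosynthesis and erythroid genes. Same-numbered libraries deviated together, and with the replicate number as a block the count was 2047 genes, 1250 higher and 797 lower. Leaving out HSC library 1, 2_3 or 4 gave 1839, 526 and 406 genes, and leaving out MPP2 library 1, 2_3 or 4 gave 378, 1155 and 509. The higher share of 56.2% ranged from 31.0% without HSC library 2_3 to 65.7% without HSC library 1. It was 67.2% with no filter on low counts, 73.6% with only these 6 libraries fitted, and 70.8% with these 6 and the block.

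**Figure D1:**
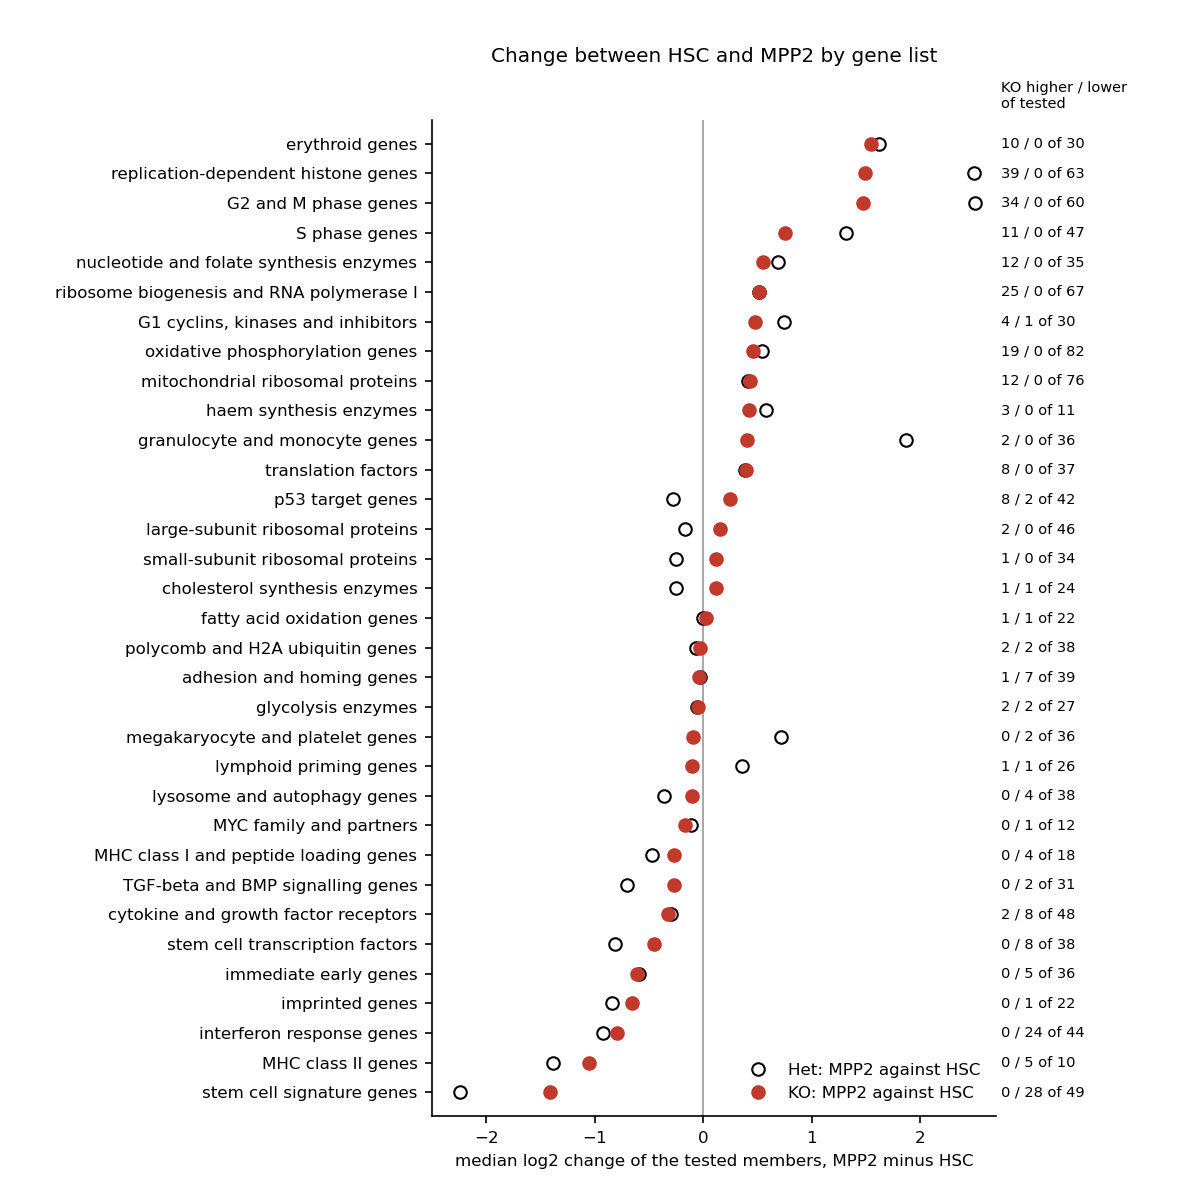
Median log2 change (MPP2 minus HSC; x axis) of each gene list in KO (filled points) and Het (open points), with the numbers of members that passed the test in KO. G2 and M phase genes and histone genes had the highest medians of the cell cycle lists in both genotypes, and the stem cell signature the lowest of all lists.

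The genes of the surface proteins used for sorting were read as a check. Cd48 followed the gates, so its change is not a finding. Kit and Ly6a fell although both gates were Kit+ and Sca1+. Cd48 was at 1.0, 0.568 and 0.310 CPM in HSC and 56.9, 34 and 35.2 CPM in MPP2 (log2 change 6.07 ± 0.97, edgeR adjusted p = 0.00201), and at 2.74, 2.81 and 1.30 CPM in the 3 MPP1 KO libraries. Cd34 was at 61.6, 74.8 and 98.5 CPM in HSC and 272, 161 and 149 CPM in MPP2, higher in every MPP2 library but short of the threshold (log2 change 1.31 ± 0.41, edgeR adjusted p = 0.0783). Ly6a, which encodes Sca1, fell from 19.9, 26.7 and 16.8 to 8.48, 6.04 and 4.66 CPM (log2 change -1.72 ± 0.39, edgeR adjusted p = 0.00926), and Kit from 753, 681 and 815 to 523, 519.9 and 517 CPM (log2 change -0.53 ± 0.14, edgeR adjusted p = 0.0169). Without HSC library 2_3 or MPP2 library 4 Ly6a lost its call (adjusted p = 0.052 and 0.0665), and Kit lost it without HSC library 4, MPP2 library 1 or MPP2 library 4 (0.114, 0.077 and 0.0713). Slamf1, encoding CD150, and Flt3 had log2 changes of -0.05 ± 0.21 and -0.11 ± 0.68 (edgeR adjusted p = 0.938 and 0.963).

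Stem cell signature genes were lower in MPP2 in 48 of the 49 members tested, and 28 fell past the threshold (57.1% called, against 6.04% of all genes) while none rose. Their median log2 change was -1.41, against -0.17 over all genes, and 40 of 49 had no overlap between the groups. The exception in sign was Slc22a3, an organic cation transporter gene (log2 change 1.06 ± 0.36, edgeR adjusted p = 0.101). Mean log2 CPM over the list was 4.87, 5.18 and 5.29 in HSC, 4.37, 4.79 and 4.99 in MPP1 and 3.34, 3.86 and 3.57 in MPP2, so that the MPP1 libraries lay partly within the HSC range and every MPP2 library lay below both. With the block 34 members fell, and leaving out HSC libraries 1, 2_3 and 4 and MPP2 libraries 1, 2_3 and 4 gave 28, 24, 19, 17, 28 and 22 falling.

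Sult1a1, a sulfotransferase gene that marks HSC (chr7:133816379-133819946, mm9), was at 7.97, 11.6 and 7.05 CPM in HSC and 0.535, 0.539 and 0.380 CPM in MPP2, with 1.84, 6.28 and 4.69 CPM in MPP1. It had the largest fall of the genes named by the rule (log2 change -4.17 ± 0.46, edgeR adjusted p = 8.77e-06), and all 3 MPP2 libraries were below every HSC and MPP1 library. Fgd5, a guanine nucleotide exchange factor gene used as an HSC reporter (chr6:91928872-92025998, mm9), fell from 46, 56.6 and 46.7 to 4.17, 9.16 and 5.58 CPM (log2 change -2.98 ± 0.39, edgeR adjusted p = 0.000327) and was at 20.0, 31.1 and 39.3 CPM in MPP1. Neo1, encoding the netrin receptor neogenin, fell from 17.7, 17.6 and 22.7 to 0.803, 3.23 and 0.602 CPM (log2 change -3.65 ± 0.71, edgeR adjusted p = 0.00584). Trim47, a ubiquitin ligase gene of the signature, fell from 16.8, 29 and 33.7 to 7.81, 8.68 and 9.73 CPM (log2 change -1.60 ± 0.25, edgeR adjusted p = 0.000289). Esam, an adhesion protein of endothelium and HSC, was at 55.9, 48.5 and 54.3 CPM in HSC and 18.2, 21.1 and 20.7 CPM in MPP2 (log2 change -1.41 ± 0.22, edgeR adjusted p = 0.00029). Ctsf, encoding the lysosomal protease cathepsin F, fell from 8.62, 16.2 and 26 to 1.65, 2.84 and 2.12 CPM (log2 change -2.94 ± 0.42, edgeR adjusted p = 0.000241). Each of these 6 calls held in all 17 alternative analyses, including the ones that left out a library.

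Other large falls, apart from Smtnl1, were not on the signature list. Gimap4, an immunity-associated GTPase gene, was at 35, 36.7 and 36.2 CPM in HSC and 2.63, 3.92 and 2.66 CPM in MPP2 (log2 change -3.55 ± 0.39, edgeR adjusted p = 6.46e-06). Its HSC libraries lay close together and far above its MPP2 libraries. Smtnl1, Il1rapl2, Klrb1c, Hid1, Pygm and Abcg3 had log2 changes of -3.94, -3.79, -3.41, -3.34, -3.29 and -2.83 (edgeR adjusted p from 0.00196 to 0.00569). Pgr, the progesterone receptor gene, and Clec14a, an endothelial lectin gene, fell by 2.94 and 2.88 (log2; edgeR adjusted p = 0.0151 and 0.00891), but both missed the threshold without MPP2 library 1 (adjusted p = 0.0909 and 0.0735) or MPP2 library 4 (0.0623 and 0.0656). Pgr also missed it without HSC library 2_3 or 4 (0.057 and 0.0552). Of the 15 largest falls, 13 held under every alternative, against 3 of the 15 largest rises, among them the sort gene Cd48.

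Among 38 stem cell transcription factor genes, 8 fell (21.1% called, against 6.04% of all genes), none rose and the median log2 change was -0.45. Mecom, which encodes EVI1, a factor needed for HSC self-renewal (chr3:29850221-30446930, mm9), was at 242, 210.4 and 211 CPM in HSC and 81.6, 90.1 and 68.4 CPM in MPP2 (log2 change -1.47 ± 0.24, edgeR adjusted p = 0.00133), with 168, 188 and 204 CPM in MPP1. Its MPP2 libraries did not overlap with those of either earlier cell type. Prdm16, a related factor gene, fell from 54.2, 42.1 and 44.1 to 17.5, 20.4 and 19.5 CPM (log2 change -1.29 ± 0.24, edgeR adjusted p = 0.00169), and the homeobox gene Nkx2-3 from 26.9, 37.6 and 50.8 to 7.27, 8.06 and 9.48 CPM (log2 change -2.22 ± 0.40, edgeR adjusted p = 0.00374). Myct1, encoding a nuclear protein expressed in HSC, fell from 86.6, 93.1 and 117 to 55.3, 57.2 and 63.2 CPM (log2 change -0.76 ± 0.17, edgeR adjusted p = 0.00606) and missed the threshold without HSC library 4 (adjusted p = 0.0674). The other 4 that fell, listed after their values were seen, were Tcf15, Klf12, Zfp521 and Hlf. With the block 12 members fell, and 8, 7, 5, 5, 8 and 5 fell when the HSC libraries 1, 2_3 and 4 and then the MPP2 libraries 1, 2_3 and 4 were left out.

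Mycn was the only one of 12 MYC family and partner genes to pass (8.33% called, against 6.04% of all genes). It encodes N-MYC, a growth-promoting factor of HSC, and fell from 194, 157 and 166 to 66.3, 71.7 and 84.8 CPM (log2 change -1.21 ± 0.18, edgeR adjusted p = 0.000165), a call that held in all 17 alternatives. Of 22 imprinted genes tested, only Cdkn1c, the gene of the cell cycle inhibitor p57 that keeps HSC quiescent, passed, at 9.56, 9.65 and 13 CPM in HSC and 2.92, 4.85 and 2.54 CPM in MPP2 (log2 change -1.64 ± 0.47, edgeR adjusted p = 0.0407). That call was lost when HSC library 2_3 or 4 or MPP2 library 1 or 4 was left out (adjusted p = 0.0957, 0.164, 0.191 and 0.176). The imprinted list as a whole had a median of -0.66, with 4.55% of its genes called against 6.04% of all genes. Cdkn1c was also the only one of the G1 regulators to fall.

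Of 48 cytokine and growth factor receptor genes 8 fell and 2 rose (20.8% called, against 6.04% of all genes), with a median log2 change of -0.33. Tie1, an orphan receptor kinase gene of endothelium and HSC, was at 127, 86.5 and 108 CPM in HSC and 52.8, 54.6 and 52.9 CPM in MPP2 (log2 change -1.01 ± 0.19, edgeR adjusted p = 0.00164). Its call held in all 17 alternatives, with no overlap between groups. Il1rl1, the IL-33 receptor gene, rose from 1.97, 4.14 and 1.73 to 22.5, 18.1 and 35.9 CPM (log2 change 3.30 ± 0.70, edgeR adjusted p = 0.0122), and Ifngr1, an interferon-gamma receptor subunit gene, from 67.1, 82.3 and 93 to 123, 118 and 183 CPM (log2 change 0.81 ± 0.19, edgeR adjusted p = 0.00835). Il1rl1 missed the threshold without HSC library 4 (adjusted p = 0.0779) and Ifngr1 without MPP2 library 4 (0.101). Falling counts were 7, 6, 2, 3, 5 and 3 when the same 6 libraries were left out in turn.

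Of 39 adhesion and homing genes 7 fell and 1 rose (20.5% called, against 6.04% of all genes). Robo4, an endothelial guidance receptor that helps HSC stay in the marrow, fell from 17.1, 16.9 and 20.2 to 2.43, 6.21 and 3.42 CPM (log2 change -2.17 ± 0.35, edgeR adjusted p = 0.000424). Itgal, the alpha subunit gene of the leukocyte integrin LFA-1, was the single riser, at 11.7, 11.6 and 6.66 CPM in HSC and 44.5, 29.3 and 30.4 CPM in MPP2 (log2 change 1.80 ± 0.33, edgeR adjusted p = 0.00146). Icam1, which encodes a ligand of LFA-1, fell (log2 change -1.11 ± 0.25, edgeR adjusted p = 0.00769) but missed the threshold without MPP2 library 4 (adjusted p = 0.061). Jam2, Jam3, Alcam and Emcn, listed after their values were seen, also fell. Without MPP2 library 1 or 4 the falling count was 3 and 2, and it was 4 without HSC library 4.

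Cell cycle lists differed in how many members passed. All 60 G2 and M phase genes were higher in MPP2, none of the 60 had overlapping libraries, 34 passed the threshold (56.7% called, against 6.04% of all genes), and the median log2 change was 1.47. Mean log2 CPM over the list was 6.32, 5.57 and 5.24 in HSC, 6.72, 6.19 and 5.89 in MPP1 and 7.43, 7.05 and 7.24 in MPP2. Thus HSC library 1 lay within the MPP1 range, and the 3 MPP2 libraries were closer to each other than the 3 HSC libraries were. The number that passed followed single libraries: it was 53, 7, 4, 6, 26 and 10 without HSC libraries 1, 2_3 and 4 and MPP2 libraries 1, 2_3 and 4 in turn, and 58 with the block. Genes that missed the threshold included Mki67, the proliferation marker (log2 change 1.48 ± 0.52, edgeR adjusted p = 0.119), and Cdk1, the mitotic kinase gene (log2 change 1.34 ± 0.47, edgeR adjusted p = 0.118), both with no overlap.

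**Figure D2:**
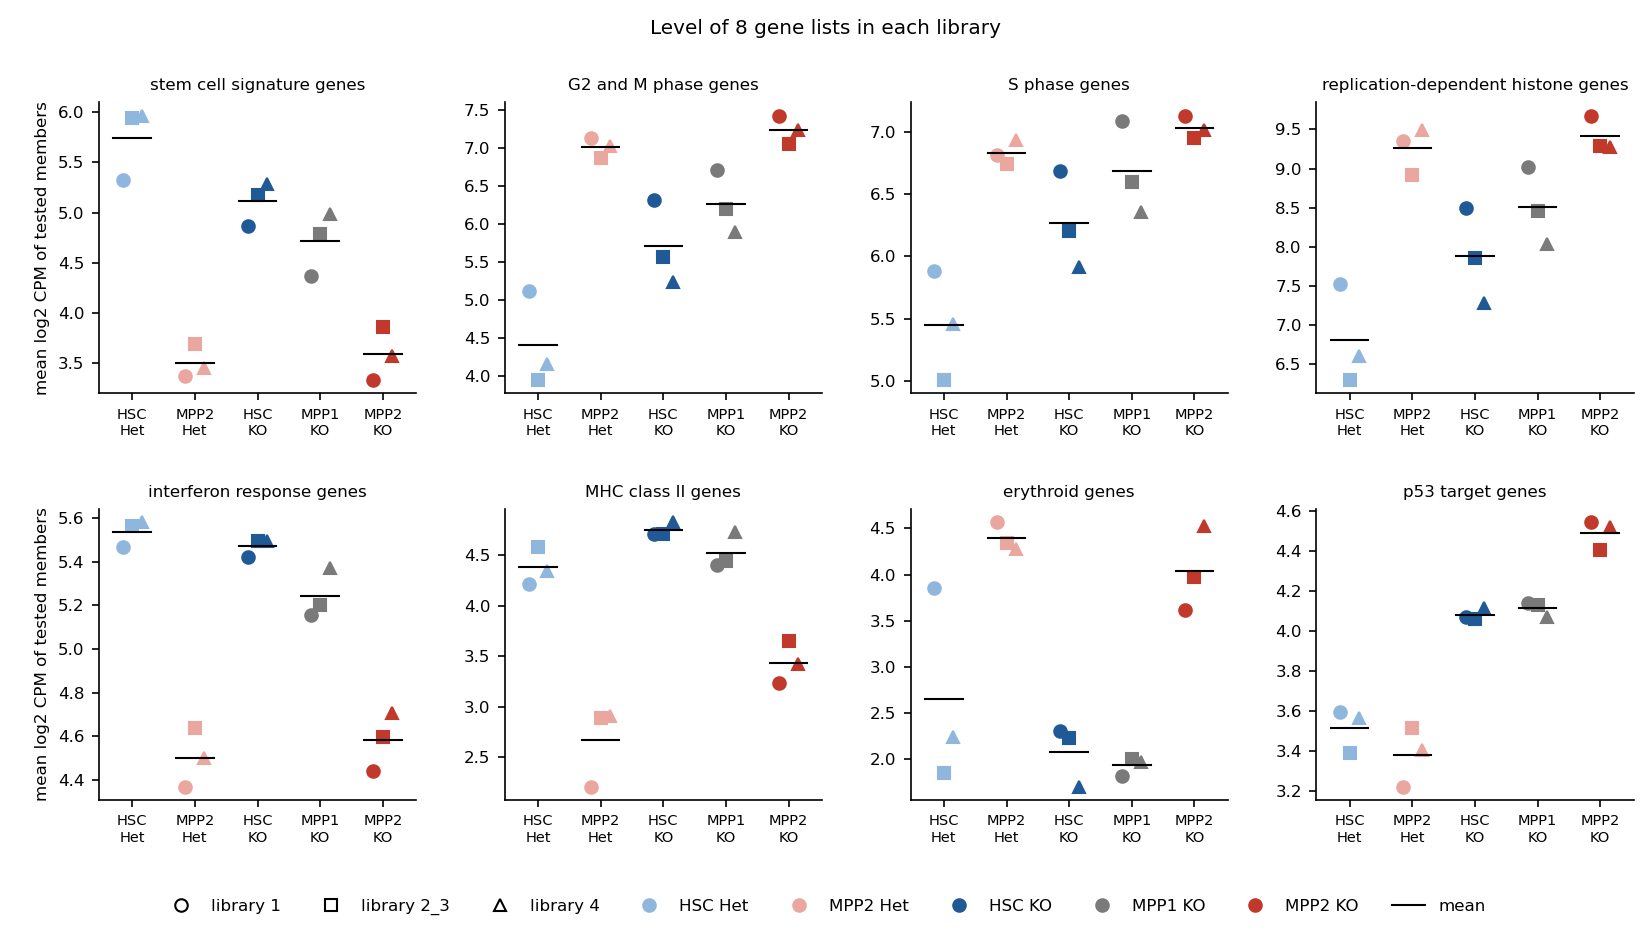
Mean log2 CPM over the tested members of 8 gene lists (a panel each, y axis) in each library of HSC and MPP2 from Het mice and of HSC, MPP1 and MPP2 from KO mice, with marker shape for the replicate label and a line at the group mean. The MPP2 KO libraries were above all HSC KO libraries for G2 and M phase, S phase, histone, erythroid and p53 target genes and below them for stem cell signature, interferon response and MHC class II genes.

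The promoters of the 3 G2 and M phase genes with the smallest adjusted p among those with a RefSeq window are shown because CCAAT boxes and the cell cycle homology region (CHR) are known elements of late cell cycle promoters. Each line holds the 150 bases before the annotated start, read 5′ to 3′ on the gene's strand, from RefSeq on GRCm38.p6, a later build than the mm9 positions. Capitals mark CCAAT or its reverse complement ATTGG, and the CHR letters TTTGAA or their reverse complement TTCAAA.
Ube2c, chr2:164769779-164769928, plus strand: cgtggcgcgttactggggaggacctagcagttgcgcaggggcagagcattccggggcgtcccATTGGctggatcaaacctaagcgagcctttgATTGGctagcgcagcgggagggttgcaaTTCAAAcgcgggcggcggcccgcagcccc
Bub3, chr7:131560220-131560369, plus strand: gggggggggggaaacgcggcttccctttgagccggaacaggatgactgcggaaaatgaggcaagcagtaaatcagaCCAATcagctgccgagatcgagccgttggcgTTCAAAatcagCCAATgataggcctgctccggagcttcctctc
Spc25, chr2:69206214-69206363, minus strand: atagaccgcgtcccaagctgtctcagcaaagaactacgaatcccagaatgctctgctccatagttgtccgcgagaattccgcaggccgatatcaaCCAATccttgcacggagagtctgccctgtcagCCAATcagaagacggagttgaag
In Ube2c the shown CCAAT matches begin at -88 and -57 and the CHR match at -29 from the start. Bub3 had CCAAT matches at -74 and -32 around a CHR match at -43, and Spc25 had CCAAT matches at -55 and -23 with no CHR match before its start. Over windows from 250 bases before to 50 after the start, CCAAT was present on either strand in 75.9% and TTTGAA in 72.2% of 54 windows of 51 G2 and M phase genes. The shares over all 32851 windows in the table were 37.4% and 17.9%. Bub3 has 2 RefSeq windows, and the first listed is shown. A match describes the letters only and is not evidence of binding.

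Ube2c, encoding the ubiquitin-conjugating enzyme of the anaphase-promoting complex (chr2:164595398-164604322, mm9), was at 26.3, 25.1 and 8.93 CPM in HSC and 73.1, 58.2 and 54.8 CPM in MPP2 (log2 change 1.63 ± 0.31, edgeR adjusted p = 0.00341), with 31.5, 33.6 and 23.1 CPM in MPP1. HSC library 4 was the lowest of the 6 and every MPP2 library was above every HSC library. Spc25, a kinetochore subunit gene (chr2:69031952-69044251, mm9), rose from 70.3, 49.5 and 39.5 to 199, 149 and 173 CPM (log2 change 1.71 ± 0.33, edgeR adjusted p = 0.00514). Bub3, a spindle checkpoint gene (chr7:138703905-138715412, mm9), rose from 73.7, 47.1 and 53.6 to 118, 94 and 102 CPM (log2 change 0.85 ± 0.18, edgeR adjusted p = 0.00504). Incenp, encoding a scaffold of the chromosomal passenger complex, rose from 167, 121 and 110.5 to 299, 315 and 416 CPM (log2 change 1.37 ± 0.26, edgeR adjusted p = 0.00335). These 4 calls held in all 17 alternatives. They had the smallest adjusted p of the list, not the largest changes.

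S phase genes were higher in 46 of 47 cases, with 37 not overlapping, but only 11 passed the threshold (23.4% called, against 6.04% of all genes) and the median log2 change was 0.76. Tyms, the thymidylate synthase gene, was the one with a negative sign (log2 change -0.61 ± 0.60, edgeR adjusted p = 0.679). Fen1, encoding the flap endonuclease of lagging-strand synthesis (chr19:10273622-10278659, mm9), was at 115, 93.4 and 71.4 CPM in HSC and 200.3, 171 and 196 CPM in MPP2 (log2 change 1.02 ± 0.22, edgeR adjusted p = 0.00658). Chaf1a, the large subunit gene of chromatin assembly factor 1 (chr17:56179827-56206973, mm9), rose from 142, 120.3 and 102 to 169.9, 201 and 234 CPM (log2 change 0.73 ± 0.18, edgeR adjusted p = 0.0126). Clspn, which encodes the checkpoint adaptor claspin, and Rrm1, the large subunit gene of ribonucleotide reductase, rose by 0.96 and 1.04 (log2; edgeR adjusted p = 0.0133 and 0.0184). All 4 lost their calls without HSC library 4 (adjusted p = 0.0552, 0.108, 0.094 and 0.113). Chaf1a, Clspn and Rrm1 also lost them without HSC library 2_3 (0.0522, 0.075 and 0.104) and MPP2 library 4 (0.0878, 0.0648 and 0.0525), and Rrm1 without MPP2 library 1 (0.0975). With the block 37 members passed, and 31, 1, 0, 3, 6 and 1 passed without HSC libraries 1, 2_3 and 4 and MPP2 libraries 1, 2_3 and 4.

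Promoters of the first 2 of these genes are shown in the same way, beside the share of the E2F letters known from replication genes.
Fen1, chr19:10204394-10204543, minus strand: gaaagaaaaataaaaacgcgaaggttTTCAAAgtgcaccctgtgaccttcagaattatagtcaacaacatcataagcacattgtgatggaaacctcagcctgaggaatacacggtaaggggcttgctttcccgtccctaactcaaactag
Chaf1a, chr17:56040266-56040415, plus strand: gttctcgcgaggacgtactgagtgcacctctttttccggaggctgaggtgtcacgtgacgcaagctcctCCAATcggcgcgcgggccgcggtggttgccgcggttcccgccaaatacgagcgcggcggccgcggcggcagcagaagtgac
The capitals are a CHR match at -124 in Fen1 and a CCAAT match at -81 in Chaf1a. Over the 45 windows of 38 S phase genes, TTTCGCGC or TTTGGCGC occurred on either strand in 31.1%, CCAAT in 57.8% and TTTGAA in 11.1%. Neither displayed stretch holds these exact E2F letters, which were in 0.813% of all windows. Other forms of the E2F site were not searched, so E2F sites in these promoters are not excluded. Fen1 has 2 RefSeq windows, and the first listed is shown.

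Regulators of the G1 phase changed less. Of 30 such genes, 4 rose, Cdkn1c fell and 25 did not pass (16.7% called, against 6.04% of all genes), with a median log2 change of 0.48. Ccna2, the cyclin A2 gene, rose from 136, 73.1 and 51 to 346, 251 and 272 CPM (log2 change 1.74 ± 0.44, edgeR adjusted p = 0.0303). Tfdp1, the E2F partner gene, Rbl1, encoding the pocket protein p107, and E2f4 rose by 0.78, 0.75 and 0.63 (log2; edgeR adjusted p = 0.0119, 0.0217 and 0.0385). None of these 5 calls held without HSC library 2_3 (adjusted p from 0.0771 to 0.188), HSC library 4 (0.108 to 0.232) or MPP2 library 1 (0.088 to 0.191). Rising members numbered 9, 0, 0, 0, 4 and 1 over the 6 omissions in the order above, and 11 with the block. Cdk6, the kinase gene that times HSC exit from quiescence, was at 228, 132 and 149.8 CPM in HSC and 302, 304 and 346 CPM in MPP2, short of the threshold (log2 change 0.90 ± 0.36, edgeR adjusted p = 0.169). The D-type cyclin genes Ccnd1, Ccnd2 and Ccnd3 had log2 changes of -0.58 ± 0.28, -0.23 ± 0.16 and 0.23 ± 0.18, none past the threshold. Cdkn1a, which encodes the inhibitor p21, was at 7.12, 4.22 and 7.90 CPM in HSC and 22.6, 19.7 and 18.5 CPM in MPP2, with no overlap and an adjusted p of 0.222 (1.66 ± 0.74, edgeR). The remaining members tested had log2 changes from -2.29 for Cdkn2b to 2.10 for Cdkn2a, both with few counts.

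Replication-dependent histone genes rose in 39 of 63 cases (61.9% called, against 6.04% of all genes) and none fell, with a median log2 change of 1.49 and no overlap in 60. Hist1h1e, a linker histone gene (chr13:23713624-23714371, mm9), was at 537, 396 and 374 CPM in HSC and 1069.6, 883 and 1042 CPM in MPP2 (log2 change 1.20 ± 0.20, edgeR adjusted p = 0.000723). Hist1h1c, another linker histone gene, rose from 491, 374 and 384 to 833, 739 and 896 CPM (log2 change 0.98 ± 0.18, edgeR adjusted p = 0.00159), and both calls held in all 17 alternatives. Hist1h1d and Hist1h2ak rose by 1.13 and 1.90 (log2; edgeR adjusted p = 0.00792 and 0.00926), but missed the threshold without HSC library 2_3 (0.0525 and 0.0507) or 4 (0.06 and 0.0579). Core histone genes are near-identical copies whose reads the counting could have split or dropped, so single members are uncertain. With the block 58 rose, and 50, 3, 2, 4, 25 and 8 rose over the same 6 omissions.

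**Figure D3:**
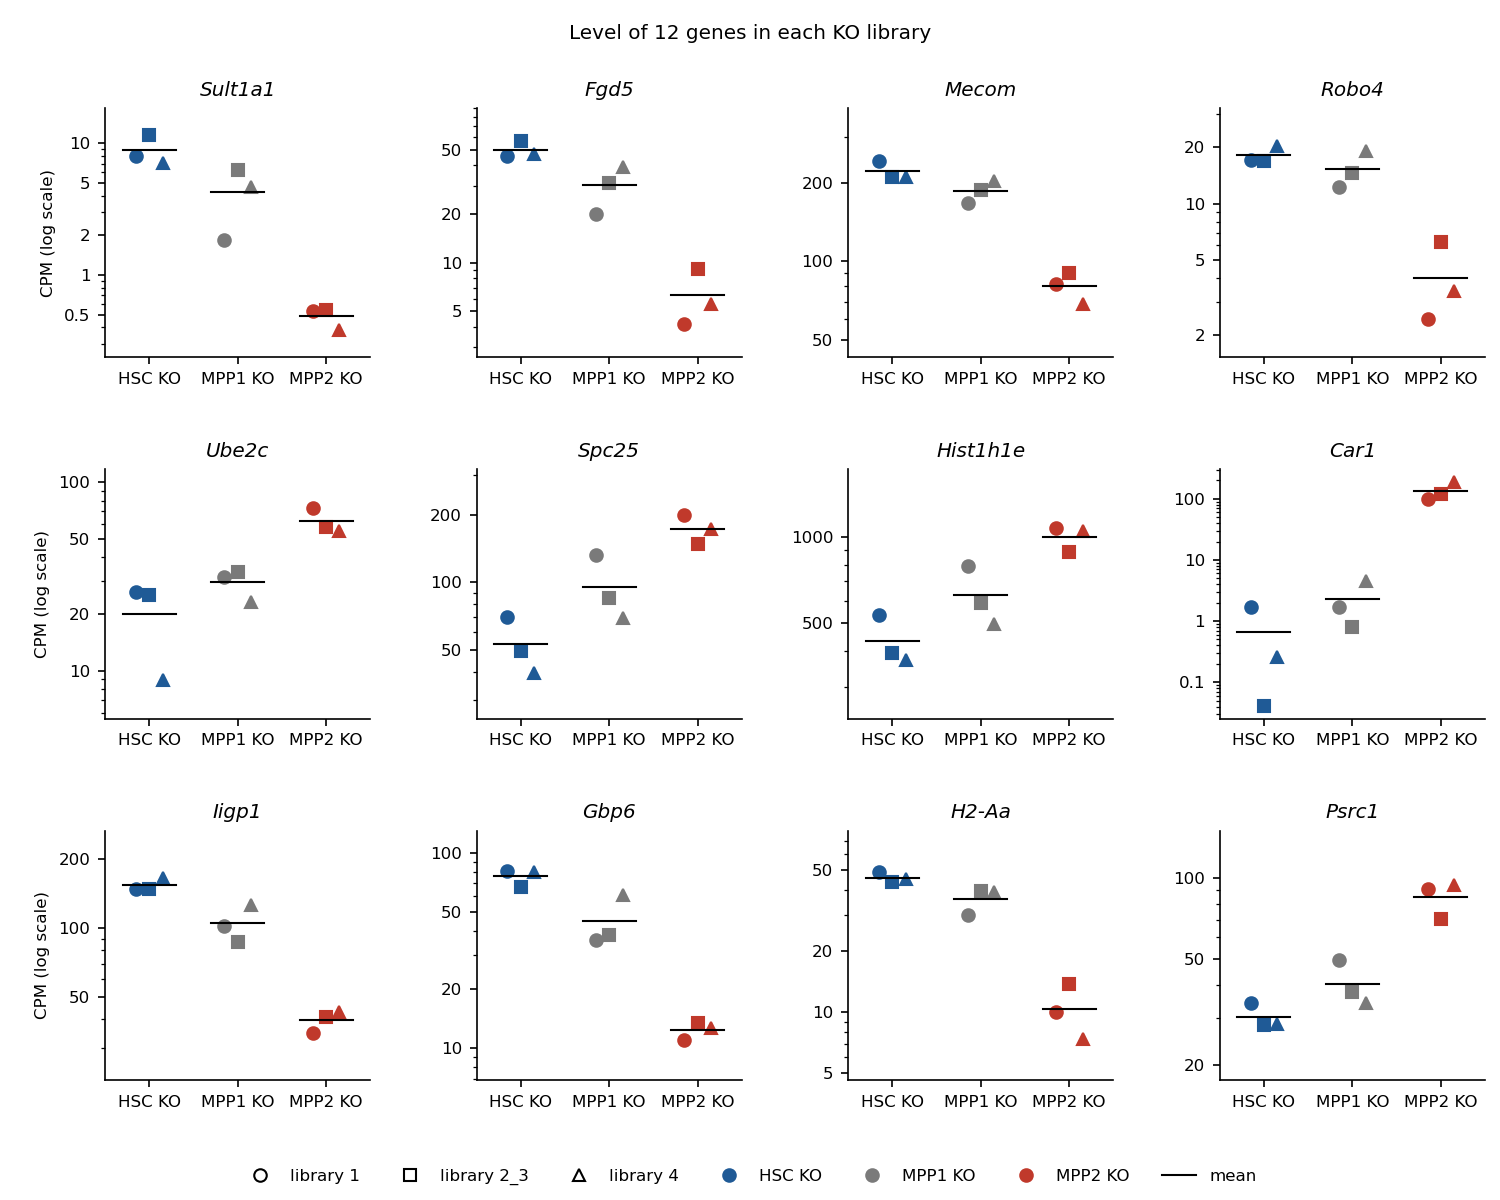
Level in CPM (log scale, y axis) of 12 genes in each KO library of HSC, MPP1 and MPP2, with marker shape for the replicate label and a line at the group mean. In each panel the 3 MPP2 libraries are separate from the 3 HSC libraries, and for Car1 they lie between 98.7 and 189 CPM against at most 1.69 CPM in HSC.

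Ribosome production and translation lists held rises and no falls. Of 67 ribosome biogenesis and RNA polymerase I genes 25 rose and none fell (37.3% called, against 6.04% of all genes), with a median log2 change of 0.52. Nhp2, encoding a protein of H/ACA ribonucleoproteins, was at 59.4, 64.1 and 44.3 CPM in HSC and 117, 98.8 and 113 CPM in MPP2 (log2 change 0.97 ± 0.20, edgeR adjusted p = 0.00306). Nolc1, a nucleolar chaperone gene, rose from 195, 197 and 160.2 to 335, 311 and 357 CPM (log2 change 0.86 ± 0.18, edgeR adjusted p = 0.00419), and Rrn3, the initiation factor gene of RNA polymerase I, from 87, 64.8 and 78.5 to 135, 113 and 126 CPM (log2 change 0.70 ± 0.15, edgeR adjusted p = 0.00459). Lyar, a nucleolar growth regulator gene, rose by 0.94 ± 0.19 (log2; edgeR adjusted p = 0.0035), and these 4 calls held in all 17 alternatives. The count was 38 with the block and 33, 7, 6, 7, 25 and 8 over the 6 omissions.

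Among ribosomal protein genes, Rpl38 and Rpl29 of 46 for the large subunit and Rps27l of 34 for the small subunit rose. The list medians were 0.16 and 0.12, against -0.15 and -0.21 with limma-trend on the deposited normalized table, which tests 12186 genes. The shares called, 4.35% and 2.94%, were near the 3.39% of all genes called higher. Rpl38 was at 108, 74.3 and 92.1 CPM in HSC and 181, 126 and 137 CPM in MPP2 (log2 change 0.69 ± 0.17, edgeR adjusted p = 0.0151) and missed the threshold without HSC library 2_3, HSC library 4 or MPP2 library 1 (adjusted p = 0.116, 0.0671 and 0.157). Rpl29 (log2 change 0.48 ± 0.15, edgeR adjusted p = 0.0422) missed it under every omission except that of MPP2 library 2_3 (0.0564 to 0.278). Processed copies of ribosomal protein genes can share reads with them. Eif4e, the cap-binding factor gene, rose from 140.3, 127 and 128 to 296, 221 and 231 CPM (log2 change 0.92 ± 0.17, edgeR adjusted p = 0.00167) and held in all 17 alternatives. It was among 8 of 37 translation factor genes that rose, with none falling (21.6% called, against 6.04% of all genes). Eif2s2, Eif3g and Eif3b rose by 0.74, 0.60 and 0.57 (log2; edgeR adjusted p = 0.0125, 0.0181 and 0.027), and all 3 missed the threshold without HSC library 2_3 (0.0671, 0.0723 and 0.137), HSC library 4 (0.0626, 0.0626 and 0.151) or MPP2 library 1 (0.1, 0.102 and 0.105). With the block 14 translation factor genes rose, and 12, 1, 1, 1, 9 and 2 over the 6 omissions.

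Mitochondrial and nucleotide synthesis lists held rises and no falls. All 76 mitochondrial ribosomal protein genes were higher in MPP2 and 12 passed (15.8% called, against 6.04% of all genes). They were led by Mrps22, Mrpl43, Mrpl12 and Mrps21 at 0.93, 0.92, 0.79 and 0.89 (log2; edgeR adjusted p from 0.00653 to 0.0141). None of these 4 passed without MPP2 library 1 (0.0811, 0.0835, 0.0794 and 0.107). Of 82 oxidative phosphorylation genes 19 rose and none fell (23.2% called), with a median of 0.46. Cox6b2, a cytochrome c oxidase subunit gene best known from testis, was at 9.78, 9.70 and 14.5 CPM in HSC and 36.7, 29 and 41.3 CPM in MPP2 (log2 change 1.65 ± 0.30, edgeR adjusted p = 0.00126), and that call held in all 17 alternatives. Cox8a, Ndufc2 and Cox6b1 rose by 0.75, 0.93 and 0.79 (log2), but not without MPP2 library 1 (adjusted p = 0.0638, 0.0502 and 0.108). Of 35 nucleotide and folate synthesis genes 12 rose and none fell (34.3% called). Prps1, which makes the activated ribose of nucleotides, rose from 57.5, 59.4 and 50.1 to 104, 89.9 and 102 CPM (log2 change 0.83 ± 0.16, edgeR adjusted p = 0.0019), and Gart, an enzyme gene of purine synthesis, from 196, 198 and 156 to 308, 279 and 312 CPM (log2 change 0.71 ± 0.14, edgeR adjusted p = 0.0035). Both held in all 17 alternatives, and Mthfd1 and Ppat rose by 1.14 and 0.72 (log2) but not without HSC library 4 (adjusted p = 0.0539 and 0.101). Over the 6 omissions the counts were 12, 3, 3, 0, 11 and 3 for mitochondrial ribosomal proteins, 25, 3, 3, 1, 17 and 5 for oxidative phosphorylation and 19, 4, 2, 3, 10 and 5 for nucleotide synthesis, and with the block 16, 29 and 24.

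Other metabolic lists held calls in both directions. Calls made up 14.8% of glycolysis, 9.09% of fatty acid oxidation and 8.33% of cholesterol synthesis genes, against 6.04% of all genes. Of 27 glycolysis genes Slc16a1, a lactate transporter gene, and Gapdh rose by 0.83 and 0.57 (log2), and Ldhb, a lactate dehydrogenase subunit gene, and Aldoc, an aldolase gene, fell by 1.62 and 1.51. None of those 4 calls held without HSC library 4 (adjusted p = 0.0741, 0.273, 0.0579 and 0.11). Hadhb, a subunit gene of the mitochondrial trifunctional protein, was the riser among 22 fatty acid oxidation genes (log2 change 0.65), and lost its call without HSC library 2_3 or 4 (0.102 and 0.151) or MPP2 library 1 or 4 (0.142 and 0.131). Of 24 cholesterol synthesis genes Idi1 rose and Insig1 fell (0.58 and -0.72, log2), and neither passed without HSC library 4 (0.094 and 0.25).

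Of 30 erythroid genes tested, of 34 in the files, 10 rose and none fell (33.3% called, against 6.04% of all genes). The list had a median log2 change of 1.55 and no overlap in 25. Car1, the carbonic anhydrase gene of early erythroid cells (chr3:14766217-14778459, mm9), was at 1.69, 0.0406 and 0.258 CPM in HSC and 98.7, 121 and 189 CPM in MPP2, with 1.69, 0.793 and 4.44 CPM in MPP1. The log2 change was 7.65 ± 1.59 (edgeR adjusted p = 0.0108), a size that rests on HSC values close to 0. Ank1, encoding the red cell membrane protein ankyrin 1, rose from 4.0, 5.76 and 1.86 to 39.8, 55.7 and 88.4 CPM (log2 change 4.0 ± 0.84, edgeR adjusted p = 0.0109). Tfrc, the transferrin receptor gene that brings in iron, rose from 63, 28.7 and 36.6 to 164, 158 and 221 CPM (log2 change 2.08 ± 0.46, edgeR adjusted p = 0.014). Klf1, the erythroid transcription factor gene, rose from 5.25, 4.71 and 7.80 to 33.1, 32.2 and 49.3 CPM (log2 change 2.69 ± 0.72, edgeR adjusted p = 0.0377), and Blvrb, a biliverdin reductase gene, by 1.33 ± 0.31 (log2; edgeR adjusted p = 0.0115). Kel, Ermap, Atp1b2 and Add2 rose by 3.18 to 3.92 (log2), and Pklr, the red cell pyruvate kinase gene outside the list, rose by 5.28 ± 1.40 (edgeR adjusted p = 0.0357). None of the 10 calls held without HSC library 4 (0.0725 for Ank1, 0.0816 for Tfrc, 0.115 for Klf1), and 6, 1, 0, 5, 7 and 2 rose over the 6 omissions in the usual order. Car1 missed the threshold without HSC library 2_3 or 4 (adjusted p = 0.0591 and 0.0728).

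Summed late erythroid markers were at 6.27 to 11.2 CPM in HSC and 103.5 to 198.6 CPM in MPP2. The globin genes Hba-a1, Hba-a2 and Hbb-b2 were at 0 in all 6 libraries, and Car1 carried the rise. Globin genes have near-identical copies whose reads the counting could have dropped, so these zeros do not show that globin RNA was absent. Of 11 haem synthesis genes 3 rose (27.3% called, against 6.04% of all genes), among them Cpox and Alad by 0.97 and 0.70 (log2; edgeR adjusted p = 0.0316 and 0.0346). Cpox and Alad each lost the call under at least 3 omissions, both of them without MPP2 library 1 or MPP2 library 4 (0.0528 to 0.166). In bulk libraries a larger share of erythroid-primed cells and more of this RNA in each cell cannot be told apart.

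In the other lineage lists 5.56% of megakaryocyte and platelet, 5.56% of granulocyte and monocyte and 7.69% of lymphoid priming genes were called, near the 6.04% of all genes. Of 36 megakaryocyte and platelet genes none rose, and those that fell included Mmrn1, the multimerin gene of platelet granules (log2 change -1.23 ± 0.35, edgeR adjusted p = 0.0451). Mmrn1 held its call in no omission except that of MPP2 library 4. Summed platelet markers varied between libraries, from 700.5 to 939.4 CPM in HSC and from 494 to 1220 CPM in MPP2. Of 36 granulocyte and monocyte genes Cebpa, the myeloid factor gene, and Cpa3, a protease gene of mast cells and basophils, rose, from 2.19, 3.16 and 2.07 to 11.8, 7.23 and 6.50 CPM (log2 change 1.79 ± 0.48, edgeR adjusted p = 0.0229) and by 2.69 ± 0.76 (log2; edgeR adjusted p = 0.0348). Both missed the threshold without HSC library 1 (0.0532 and 0.0921), HSC library 4 (0.124 and 0.164) or MPP2 library 1 (0.158 and 0.135). Of 26 lymphoid priming genes Tcf3 rose by 0.51 and Lax1 fell by 1.21 (log2), both lost without HSC library 2_3 or 4 (adjusted p from 0.133 to 0.237). Tespa1, a signalling gene of T cells and mast cells, rose from 1.69, 1.14 and 1.24 to 30.4, 15.4 and 14.4 CPM (log2 change 3.89 ± 0.54, edgeR adjusted p = 7.54e-05), and Golm1, a Golgi membrane protein gene, from 7.75, 14.6 and 17 to 53.6, 62.7 and 90.8 CPM (log2 change 2.39 ± 0.35, edgeR adjusted p = 0.000872). With Cd48, whose protein was used to set the gates, they were the 3 of the 15 largest rises that held in all 17 alternatives. Kcng2 and Fam46a, the 2 remaining, rose by 3.67 and 2.48 (log2; edgeR adjusted p = 0.0334 and 0.0162) and missed the threshold without HSC library 4 (0.171 and 0.0757).

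Markers of other cell types were summed per library, and their part in these changes was not tested. The platelet markers given above had the highest sums. Summed neutrophil markers were at 35.7 to 131 CPM in HSC and 15.3 to 101.2 CPM in MPP2, and B cell markers at 23 to 77.2 and 16.1 to 44.4 CPM, with Vpreb3 at 0 in MPP2. T and NK cell markers were at 18.6 to 61.5 and 38.5 to 54.6 CPM (Klrb1c fell), and macrophage and dendritic cell markers at 36.8 to 86.2 and 37.7 to 62.8 CPM. Mast cell, basophil and eosinophil markers were at 4.75 to 96.2 and 40.7 to 48.1 CPM (Cpa3 rose), the highest HSC value being that of library 4. Stroma and endothelium markers were at 122.4 to 175.4 and 112.9 to 137.5 CPM (Emcn fell), with Dcn at 0 in HSC. No member of the neutrophil, B cell, macrophage, platelet or sex-linked lists passed, and summed sex-linked genes were at 252.5 to 281.1 and 263 to 296.2 CPM.

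Of 44 interferon response genes tested 24 fell (54.5% called, against 6.04% of all genes), none rose, 41 had a negative sign and 32 had no overlap, with a median log2 change of -0.79. Iigp1, an interferon-inducible GTPase gene, had the smallest adjusted p of all genes, at 148, 148 and 166 CPM in HSC and 34.9, 41 and 43.1 CPM in MPP2 (log2 change -1.96 ± 0.18, edgeR adjusted p = 1.9e-07), and was at 102, 87.4 and 126 CPM in MPP1. Its 3 HSC libraries lay above every MPP1 library and these above every MPP2 library. Ifi44, a gene of the type I interferon response, fell from 27.3, 45.4 and 55.7 to 7.72, 10.9 and 11.5 CPM (log2 change -2.10 ± 0.24, edgeR adjusted p = 6.02e-06). Gbp2 and Gbp6, guanylate-binding protein genes of cell-autonomous defence, fell from 123, 141 and 162 to 52.9, 61.8 and 62.7 CPM (log2 change -1.26 ± 0.17, edgeR adjusted p = 6.61e-05) and from 81, 66.8 and 79.7 to 11, 13.5 and 12.6 CPM (log2 change -2.61 ± 0.34, edgeR adjusted p = 0.000277). Gbp4 and Gbp9, outside the list, fell by 3.46 and 3.16 (log2; edgeR adjusted p = 7.81e-06 and 1.28e-05). These 6 calls held in all 17 alternatives, and the list had 21, 17, 17, 14, 19 and 17 falls over the 6 omissions, with only the omission of MPP2 library 1 moving the count past 1.5 times. Members that did not pass included Isg15, a ubiquitin-like modifier gene (log2 change -1.23 ± 0.45, edgeR adjusted p = 0.11), and Bst2, encoding tetherin (log2 change 0.09 ± 0.19, edgeR adjusted p = 0.881).

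Upstream stretches of a pair of these genes are shown with capitals for the letters of the interferon-stimulated response element, GAAA, any 2 bases and GAAA on either strand, a motif chosen after the data were seen.
Ifi44, chr3:151749911-151750060, minus strand: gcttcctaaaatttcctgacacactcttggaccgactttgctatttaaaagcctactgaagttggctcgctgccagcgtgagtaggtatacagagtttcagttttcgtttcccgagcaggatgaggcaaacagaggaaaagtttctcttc
Gbp2, chr3:142620513-142620662, plus strand: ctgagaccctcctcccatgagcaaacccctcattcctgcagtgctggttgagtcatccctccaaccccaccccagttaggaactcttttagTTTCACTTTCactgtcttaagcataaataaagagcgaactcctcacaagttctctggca
Gbp2 had a match at -59, and Ifi44 had none of these exact letters in the stretch shown. Of the 38 windows of 31 interferon response genes 44.7% held a match, against 3.44% of all windows.

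Antigen presentation lists also held falls. All 10 MHC class II genes tested were lower in MPP2 and 5 passed (50.0% called, against 6.04% of all genes), with a median log2 change of -1.06. H2-Aa, the class II alpha chain gene (chr17:34406276-34424772, mm9), was at 49, 43.9 and 45.3 CPM in HSC and 9.99, 13.8 and 7.42 CPM in MPP2 (log2 change -2.14 ± 0.29, edgeR adjusted p = 6.25e-05), and Cd74, the invariant chain gene, at 106, 94.4 and 81.4 CPM in HSC and 15, 18.5 and 8.08 CPM in MPP2 (log2 change -2.76 ± 0.46, edgeR adjusted p = 0.00277). H2-Ab1 fell from 77.1, 97.7 and 115 to 38.5, 42.8 and 38.8 CPM (log2 change -1.27 ± 0.23, edgeR adjusted p = 0.00196) and H2-Eb1 by 2.06 (log2; edgeR adjusted p = 0.00077). Ciita, the class II transactivator gene, named after its value was seen, was the fifth (log2 change -1.97 ± 0.41, edgeR adjusted p = 0.00395). The same number, 5, fell under each of the 6 omissions. Of 18 class I and peptide loading genes 4 fell and none rose (22.2% called): H2-T10, Nlrc5, H2-M3 and H2-T23 had log2 changes of -0.77, -0.62, -0.79 and -0.67 (edgeR adjusted p from 0.00564 to 0.0295). H2-T10 alone of them held in all 17 alternatives, and class I genes resemble each other closely enough for reads to be split, so these values are uncertain.

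Immediate early genes fell in 5 of 36 cases and none rose (13.9% called, against 6.04% of all genes), with a median log2 change of -0.61. Nfkbia, the gene of the NF-kappaB inhibitor, was at 40.0, 48.3 and 49.7 CPM in HSC and 20.2, 22 and 23 CPM in MPP2 (log2 change -1.08 ± 0.17, edgeR adjusted p = 0.000233), and Rhob, a small GTPase gene, fell by 1.40 (log2; edgeR adjusted p = 0.0041). Both held in all 17 alternatives. Dusp1, a MAP kinase phosphatase gene, Maff, a small MAF factor gene, and Dusp2, named after its value was seen, fell by 1.42, 1.65 and 0.95 (log2; edgeR adjusted p = 0.00681, 0.0356 and 0.0452). Maff missed the threshold under every omission except that of HSC library 1 (adjusted p from 0.0603 to 0.175). Handling of cells can raise these genes, and its part was not tested. The falling count was 8 with the block and 3 or 4 over the omissions.

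p53 target genes rose in 8 of 42 cases and fell in 2 (23.8% called, against 6.04% of all genes), with a median log2 change of 0.25. Mean log2 CPM over the list was 4.07, 4.06 and 4.12 in HSC, 4.14, 4.13 and 4.07 in MPP1 and 4.55, 4.41 and 4.52 in MPP2. HSC and MPP1 shared a narrow range and every MPP2 library was above it. Psrc1, a microtubule-associated target gene (chr3:108186757-108191149, mm9), was at 34, 28.2 and 28.4 CPM in HSC and 91.3, 70.4 and 93.9 CPM in MPP2 (log2 change 1.5 ± 0.21, edgeR adjusted p = 7.54e-05). Ccng1, the cyclin G1 gene (chr11:40562054-40568813, mm9), rose from 189, 137 and 189.7 to 367, 296 and 360.0 CPM (log2 change 0.99 ± 0.17, edgeR adjusted p = 0.00057), and Gtse1, a G2 and S phase gene that binds p53, from 13.5, 15.5 and 11.7 to 68.8, 41.1 and 49.8 CPM (log2 change 1.97 ± 0.39, edgeR adjusted p = 0.00431). Rps27l, a ribosomal-protein-like target gene, rose from 34.6, 20.8 and 29.5 to 74.5, 54.3 and 60.6 CPM (log2 change 1.16 ± 0.24, edgeR adjusted p = 0.00446). These 4 calls held in all 17 alternatives. Aen, Ckap2, Zmat3 and Sulf2 also rose and Sesn1 and Trp53i11 fell, listed after their values were seen. Psrc1, Gtse1 and Ckap2 are also genes of dividing cells. Rising counts over the 6 omissions were 9, 6, 4, 5, 7 and 4, and falling counts 3, 2, 0, 2, 2 and 1.

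The remaining lists held 4 calls or fewer. Called members were 6.45% of TGF-beta and BMP signalling genes, near the 6.04% of all genes. They were 10.5% of polycomb and H2A ubiquitin genes and 10.5% of lysosome and autophagy genes. Of 31 TGF-beta and BMP signalling genes Ltbp3, which stores latent TGF-beta, and Bmpr2, a BMP receptor gene, fell by 0.94 and 0.71 (log2; edgeR adjusted p = 0.00213 and 0.0128). Of 38 polycomb and H2A ubiquitin genes Cbx7 and Cbx6, chromobox genes of the complex that ubiquitinates H2A, fell by 1.16 and 0.71, and Eed and Suz12, of the complex that methylates H3, rose by 0.63 and 0.70 (log2; edgeR adjusted p from 0.00656 to 0.0282). Of 38 lysosome and autophagy genes Ctsf, Gabarapl1, Map1lc3b and Ctsl fell, the last 3 by 0.87, 0.68 and 1.06 (log2; edgeR adjusted p from 0.00374 to 0.0202). Only Ltbp3 and Ctsf of these held in all 17 alternatives: without MPP2 library 1 the adjusted p was 0.0544 for Cbx7, 0.0504 for Cbx6, 0.151 for Eed and 0.142 for Suz12. Without HSC library 4 it was 0.0911 for Bmpr2, 0.0511 for Gabarapl1, 0.074 for Map1lc3b and 0.149 for Ctsl.

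The same step in Het mice gave 3853 genes (18% called), 2057 higher (9.59%) and 1796 lower (8.37%) in MPP2, in libraries that the KO comparison does not share. Of the 1296 genes called in KO, 1152 were called in Het in the same direction, which is 88.9% of the KO calls and 29.9% of the Het calls, and 1 was called in the opposite direction. The change was smaller in KO for 940 of the 1296. Counts of calls do not show that the genotypes differ, which the interaction test addresses: 7 genes passed (0.0326% called), with 1565 genes at an unadjusted p under 0.05. All 60 G2 and M phase genes, 61 of 63 histone genes, 44 of 47 S phase genes and 42 of 49 stem cell signature genes changed less in KO, but of all of these only Tgm2 passed.

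List levels stand beside these changes. Mean log2 CPM of the G2 and M phase genes was 5.12, 3.95 and 4.16 in HSC Het and 7.13, 6.86 and 7.03 in MPP2 Het, against 6.32, 5.57 and 5.24 and 7.43, 7.05 and 7.24 in KO. The medians of the change were 2.5 in Het and 1.47 in KO. For stem cell signature genes the means were 5.32, 5.95 and 5.97 in HSC Het and 3.37, 3.70 and 3.45 in MPP2 Het, with medians of the change of -2.24 in Het and -1.41 in KO. For interferon response genes the medians were -0.93 in Het and -0.79 in KO, and for p53 targets -0.28 and 0.25. Erythroid genes had medians of 1.62 and 1.55, and HSC Het library 1 stood far above the other HSC libraries: Car1 was at 176, 17.9 and 5.65 CPM in HSC Het and 401, 248 and 299 CPM in MPP2 Het. Ccng1 had a log2 change of 0.18 ± 0.16 in Het (edgeR adjusted p = 0.567) and 0.99 ± 0.17 in KO, and the difference of 0.81 ± 0.23 did not pass (adjusted p = 0.335). Psrc1, Gtse1 and Rps27l also rose in Het, by 1.557 ± 0.212, 1.714 ± 0.389 and 0.996 ± 0.245 (log2; edgeR adjusted p = 5.05e-06, 0.00282 and 0.00369). Their differences, KO minus Het, were -0.06 ± 0.29, 0.26 ± 0.534 and 0.161 ± 0.342, and none passed.

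In all 7 genes that passed the interaction test the fall from HSC to MPP2 seen in Het was smaller or absent in KO. Kcnk5, a potassium channel gene (chr14:20959280-21001004, mm9), was at 50.9, 52.4 and 73.2 CPM in HSC Het and 17.3, 19.3 and 22.7 CPM in MPP2 Het, and at 34.9, 28.3 and 27.6 and 30.4, 28.4 and 32.8 CPM in KO. It fell in Het (-1.57 ± 0.19) while the KO groups overlapped (0.01 ± 0.19), a difference of 1.59 ± 0.27 (edgeR adjusted p = 0.0198). Gas6, which encodes a ligand of the TAM receptor kinases (chr8:13465374-13494535, mm9), went from 11.2, 12.2 and 14.5 to 0.617, 1.42 and 0.603 CPM in Het and was at 6.72, 9.90 and 8.08 and 6.42, 6.47 and 3.93 CPM in KO. The difference was 3.30 ± 0.57 (edgeR adjusted p = 0.0198), and every MPP2 KO library was above every MPP2 Het library. Nrk, an X-linked kinase gene (chrX:135448969-135545071, mm9), went from 11.5, 19.8 and 20.7 to 0.432, 0.597 and 1.01 CPM in Het and from 3.44, 7.30 and 3.98 to 2.23, 2.10 and 1.49 CPM in KO, a difference of 3.32 ± 0.58 (edgeR adjusted p = 0.0198). It fell in both genotypes, with HSC KO below every HSC Het library.

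Pik3cd, the PI3-kinase delta gene (chr4:149023277-149076680, mm9), went from 121, 197 and 181 to 90.5, 96.2 and 82.4 CPM in Het and was at 81.8, 86 and 79.2 and 112, 104 and 123 CPM in KO, a difference of 1.35 ± 0.26 (edgeR adjusted p = 0.0435). Glipr2, a Golgi-associated protein gene (chr4:43970273-43991990, mm9), went from 36.6, 41.7 and 54.3 to 13.1, 18.2 and 17.1 CPM in Het and was at 36.6, 44.7 and 46.4 and 67.6, 54.3 and 63.5 CPM in KO (1.99 ± 0.37, edgeR adjusted p = 0.0435). For both, the MPP2 KO libraries were above the HSC KO libraries, without a KO call. Plxdc2, a plexin-domain membrane protein gene (chr2:16277931-16677466, mm9), went from 60.2, 81.3 and 84.4 to 7.96, 8.62 and 12.1 CPM in Het and was at 24.7, 15 and 13.4 and 10.9, 9.76 and 13.9 CPM in KO (2.35 ± 0.42, edgeR adjusted p = 0.0435). Tgm2, the transglutaminase 2 gene of the stem cell signature (chr2:157942138-157972172, mm9), fell in both, from 209.8, 357 and 327 to 30.8, 38.7 and 34.9 CPM in Het and from 203, 182 and 157 to 67.1, 71.6 and 60.6 CPM in KO (1.65 ± 0.31, edgeR adjusted p = 0.0435). Cish, a cytokine-signalling inhibitor gene, was next and did not pass (2.13 ± 0.45, edgeR adjusted p = 0.105).

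Single libraries decided these 7 calls. The number that passed was 2, 1 and 0 without HSC KO libraries 1, 2_3 and 4, 0, 0 and 2 without MPP2 KO libraries 1, 2_3 and 4, 50, 1 and 0 without HSC Het libraries 1, 2_3 and 4, and 0, 19 and 3 without MPP2 Het libraries 1, 2_3 and 4. With the replicate block it was 34. The 7 differences kept their sign in all 21 alternatives.

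**Figure D4:**
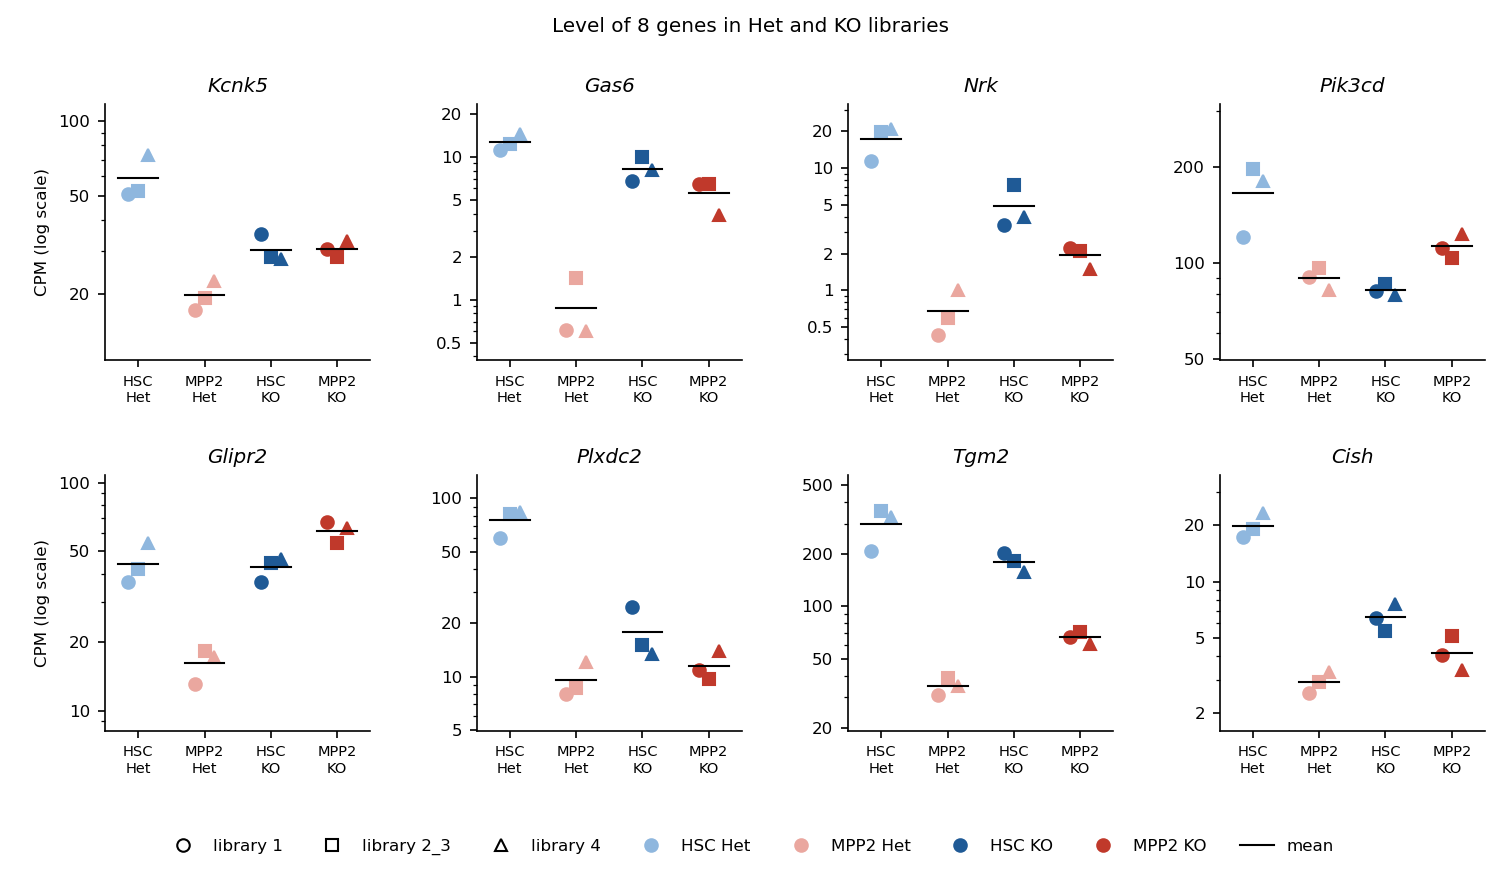
Level in CPM (log scale, y axis) of the 7 genes with a called difference and of Cish in the HSC and MPP2 libraries of Het and KO mice, with marker shape for the replicate label and a line at the group mean. The Het groups are separate in every panel, and for Kcnk5 the KO groups overlap between 27.6 and 34.9 CPM.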

How the data were processed

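RNA of sorted cells was rRNA-depleted and sequenced as paired 50 bp reads from stranded libraries, per the labels' protocols. Per the submitters' processing notes, reads passed through FastQC, Trimmomatic 0.33, TopHat2 2.0.9 with Bowtie 1.0.0 on mm9 and featureCounts, and the notes also name edgeR and R 3.1.2, with no roles given. The strand setting of the counting is not given in the sources used here. The authors deposited a count per gene and library, which was tested, and a table of normalized expression signal, deposited with no stated scaling and used only as an alternative. Even values made up 52.4% to 58.9% of nonzero counts, so mates may have been counted separately and counts are treated as reads, not fragments. Genes were matched by name because 1 file lists them in another order, and 0 columns of samples went unused.

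Counts of all 24 libraries, in 9 groups, were fitted with edgeR 4.0.16 (R 4.3.3, limma 3.58.1): TMM scaling, a low-count filter by group with a minimum count of 10, which left 21456 of 23364 genes, a mean per group, robust quasi-likelihood F tests with 15 residual degrees of freedom (common dispersion 0.466), two-sided, and Benjamini-Hochberg adjustment with a threshold of 0.05. Log2 CPM levels use a prior count of 2. Log2 changes are those of the quasi-likelihood fit, and their SE is the change divided by the square root of F, which is approximate. DESeq2 1.42.0, limma-trend, other scalings, filters and sample sets, a replicate block and omission of each library were alternatives. The fit was tested on simulated counts that held no replicate effect. It called 51% of 100 genes changed by 1 (log2) and 90% of 100 changed by 2, with 9 false calls in all.

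Replicate numbers come from the labels. Deviations from the group means of same-numbered HSC and MPP2 KO libraries correlated at 0.451, 0.755 and 0.241 over 11036 genes with a mean of at least 5 CPM. With every value over 0.1 the numbers were taken to pair the libraries. The main fit has no block for the replicate number, so its p-values and calls leave this pairing out. With the block, given as an alternative, 2047 genes were called in KO against 1296, and 34 in the interaction test against 7. Different numbers correlated at -0.66 to -0.084 except HSC 1 with MPP2 4, at 0.402, above the value for number 4. The 34 gene lists, with 1 of sort genes among them, and the 9 marker lists were chosen with earlier results of these data known, as was the comparison. Genes named are the 15 largest rises and 15 largest falls among called genes with at least 5 CPM and no overlap, up to 4 called members of each list by adjusted p, all sort genes and G1 regulators, and the 8 smallest adjusted p of the interaction test. A few genes that met the rule are not reported here. Any others are said to be named after their values were seen or serve as an example that did not pass. Promoter windows are RefSeq's, matched by symbol for 15408 of the 21456 genes tested.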

Additional observations from a re-analysis of the deposited data

Results flagged for a closer look

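For 7 genes the change between HSC and MPP2 differed between KO and Het by edgeR's interaction test. The difference of the log2 change, KO minus Het, was 1.59 for Kcnk5, 3.30 for Gas6, 3.32 for Nrk, 1.35 for Pik3cd, 1.99 for Glipr2, 2.35 for Plxdc2 and 1.65 for Tgm2. Each was positive, and each of the 7 fell from HSC to MPP2 in Het. The edgeR adjusted p was 0.0198 for Kcnk5, Gas6 and Nrk and 0.0435 for the other 4. Over the 21 alternatives it ranged from 3.55e-05 to 0.135 for Kcnk5, from 3.99e-05 to 0.204 for Gas6 and from 6.34e-05 to 0.204 for Nrk. For Pik3cd the range was 0.00237 to 0.211, for Glipr2 0.000701 to 0.204, for Plxdc2 0.000122 to 0.205 and for Tgm2 0.000312 to 0.205. Kcnk5 passed in 14 of the 21, Gas6 and Nrk in 11, Plxdc2 in 9, Glipr2 and Tgm2 in 6 and Pik3cd in 5.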

How the results depend on the processing

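Against 1296 genes called in KO, DESeq2 called 2228, the fit with the replicate block 2047, the 6 libraries alone with the replicate block 3403, and omission of single libraries 378 to 1839. Without the 2 libraries with the fewest and the most genes detected, an alternative chosen after seeing the data, it was 2101. Genes higher in MPP2 numbered 1223, 1250, 2409, 131 to 1209 and 1279 in the same order, and 1344 with only these 6 libraries fitted, against 728. Genes lower in MPP2 numbered 1005 with DESeq2, 994 with the 6 libraries and the block and 221 to 630 under omissions, against 568. The Het count of 3853 was 2292 with only its own libraries. The 7 interaction calls became 3 with RLE and 3 with upper quartile scaling, 67 with DESeq2, 34 with the replicate block, 12 with only the libraries compared, 4 with the deposited normalized table, 0 to 50 under omissions and 2 with the added alternative. The causes were not tested. No call among the 130 named genes called in KO reversed its sign in any alternative. Of these 130 calls, 57 held in all 17 alternatives and 69 without HSC library 4, the omission that kept the fewest, and beyond the counts given above the block changed none of them. The median log2 change over all genes, -0.17, was -0.19 with RLE and -0.21 with upper quartile scaling. It was -0.08 with no filter, -0.05 with limma-trend or only the 6 libraries, 0.02 with these and the block, 0 in the deposited normalized table, -0.28 to 0.08 under omissions (0.08 without HSC library 2_3) and -0.34 with the added alternative. With 3 libraries a group, a missing call does not show that a gene was unchanged.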

Other observations

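Several genes outside the naming rule had some of the smallest adjusted p-values of the comparison in KO. They were picked after their values were seen, and their calls were not followed through the alternatives. Emilin2, the gene of an extracellular matrix glycoprotein, was at 31, 35.4 and 31.2 CPM in HSC and 160.0, 131 and 173 CPM in MPP2 (log2 change 2.25 ± 0.24, edgeR adjusted p = 4.04e-06), with 35.1, 37.2 and 27 CPM in MPP1. It had the smallest adjusted p of all genes higher in MPP2. Gja1, which encodes the gap junction protein connexin 43, was at 24.7, 14 and 12 CPM in HSC and 68.6, 49.7 and 56.2 CPM in MPP2 (log2 change 1.79 ± 0.30, edgeR adjusted p = 0.000926). Spire1, an actin nucleator gene, was at 11.9, 11 and 7.92 CPM in HSC and 35.8, 36.6 and 54.7 CPM in MPP2 (log2 change 2.04 ± 0.29, edgeR adjusted p = 0.000241). Ass1, the argininosuccinate synthase gene of arginine synthesis, was at 71.4, 61.9 and 51.5 CPM in HSC and 204, 181 and 204 CPM in MPP2 (log2 change 1.67 ± 0.25, edgeR adjusted p = 0.000362). Gm5424, a pseudogene related to Ass1, changed by a like amount (log2 change 1.69 ± 0.26, edgeR adjusted p = 0.000327), and reads of these similar sequences may have been split between them.

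Among genes lower in MPP2, Txnip, the thioredoxin-interacting protein gene that restrains glucose uptake, was at 492, 545 and 632 CPM in HSC and 248, 285 and 318 CPM in MPP2 (log2 change -0.97 ± 0.16, edgeR adjusted p = 0.000475). Col4a1, a basement membrane collagen gene, was at 126, 125 and 133 CPM in HSC and 53.7, 60.7 and 46.1 CPM in MPP2 (log2 change -1.26 ± 0.20, edgeR adjusted p = 0.000289). Npr2, a natriuretic peptide receptor gene, was at 16.2, 10.5 and 11.1 CPM in HSC and 1.78, 2.98 and 2.66 CPM in MPP2 (log2 change -2.35 ± 0.38, edgeR adjusted p = 0.000362). Syne2, encoding the nuclear envelope protein nesprin-2, was at 243, 193 and 214 CPM in HSC and 88.8, 102 and 85.7 CPM in MPP2 (log2 change -1.23 ± 0.18, edgeR adjusted p = 0.000165). The groups of HSC and MPP2 libraries did not overlap for any of these genes.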
